A study of Homo sapiens with 6 samples.

Results

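The genes of the CDK inhibitor proteins were examined in RNA-SEQ libraries of NALM6 cells, a human leukemia cell line of B cell precursors. The members were a list of 8 symbols, CDKN1A, CDKN1B, CDKN1C, CDKN2A, CDKN2B, CDKN2C, CDKN2D and CDKN3, chosen by name and not by a measured value. All 8 were among the 57905 genes of the deposited count table, and 6 of them had counts and were tested, of 16622 genes tested in all. A second deposited table, of 16730 genes with values per transcript length, held 5 of them. NALM6 cells were treated for 24 h with the solvent DMSO (3 libraries) or with 500 nM of THZ1 (3 libraries), a covalent inhibitor of the kinase CDK7. All 6 libraries came from 1 cell line, at 1 dose and 1 time.

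CDK inhibitor proteins hold back the cyclin-dependent kinases (CDKs) that drive cells through division. The Cip/Kip proteins, encoded by CDKN1A (p21), CDKN1B (p27) and CDKN1C (p57), bind cyclin and kinase together, mainly in complexes of CDK2. The INK4 proteins, encoded by CDKN2A (p16), CDKN2B (p15), CDKN2C (p18) and CDKN2D (p19), bind CDK4 and CDK6 and keep the D-type cyclins away. CDKN3 differs from both families, since it encodes a phosphatase that removes the activating phosphate from CDK2 and CDK1. CDKN2A and CDKN2B lie side by side on the short arm of chromosome 9, in a region that is often deleted in lymphoblastic leukemia.

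The starts of the genes that differed most between the treatments are shown here as the annotated starts of those transcripts, though which starts these cells use was not measured. They are taken from RefSeq (build GRCh38.p14), which matched 7 of the 8 members, and run from 250 bases before to 50 bases after the annotated start, 5′ to 3′ on the strand of the gene. Capitals mark matches on either strand to the GC box (GGGCGG or CCGCCC), to the CCAAT box (CCAAT or ATTGG), and to a TTTGAA element (TTTGAA or TTCAAA). The windows are chr6:36678464-36678763 (plus strand) for CDKN1A, chr12:12717118-12717417 (plus strand) for CDKN1B, chr19:10568930-10569229 (minus strand) for CDKN2D and chr14:54396757-54397056 (plus strand) for CDKN3.
CDKN1A: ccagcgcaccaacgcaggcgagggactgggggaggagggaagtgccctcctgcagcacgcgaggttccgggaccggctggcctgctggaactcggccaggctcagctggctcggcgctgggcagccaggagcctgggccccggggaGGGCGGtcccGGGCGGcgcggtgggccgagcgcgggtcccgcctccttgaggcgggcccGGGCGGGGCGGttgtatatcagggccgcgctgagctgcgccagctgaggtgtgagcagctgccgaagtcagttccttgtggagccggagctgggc
CDKN1B: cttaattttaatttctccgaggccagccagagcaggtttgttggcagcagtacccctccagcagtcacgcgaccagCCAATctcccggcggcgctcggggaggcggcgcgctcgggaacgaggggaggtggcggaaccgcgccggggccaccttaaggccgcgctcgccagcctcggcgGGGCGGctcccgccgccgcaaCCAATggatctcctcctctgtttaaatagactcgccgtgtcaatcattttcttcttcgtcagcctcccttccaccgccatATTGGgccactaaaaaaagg
CDKN2D: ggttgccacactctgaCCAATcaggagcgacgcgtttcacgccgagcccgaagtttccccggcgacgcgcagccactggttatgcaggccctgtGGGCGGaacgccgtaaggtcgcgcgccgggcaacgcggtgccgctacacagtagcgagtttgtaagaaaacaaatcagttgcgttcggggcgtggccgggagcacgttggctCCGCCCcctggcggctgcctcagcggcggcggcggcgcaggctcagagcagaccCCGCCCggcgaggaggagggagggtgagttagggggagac
CDKN3: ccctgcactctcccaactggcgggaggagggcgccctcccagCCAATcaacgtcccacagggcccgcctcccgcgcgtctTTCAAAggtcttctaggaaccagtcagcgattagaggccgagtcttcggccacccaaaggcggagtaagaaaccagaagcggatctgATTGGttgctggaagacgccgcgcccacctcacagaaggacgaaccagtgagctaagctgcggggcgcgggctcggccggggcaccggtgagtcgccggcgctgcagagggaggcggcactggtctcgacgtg

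The CDKN1A window held 4 GC boxes, of which the last pair overlap, and no CCAAT box. The CDKN2D window held 3 GC boxes and 1 CCAAT box. The CDKN1B window held 1 GC box and 3 CCAAT boxes. The CDKN3 window held 0 GC boxes, 2 CCAAT boxes and 1 TTTGAA element. Of all 35116 RefSeq windows of 300 bases, 45.0% held at least 1 GC box, 34.6% at least 1 CCAAT box and 15.2% at least 1 TTTGAA element. At least 3 GC boxes were in 15.8% of these windows, and at least 3 CCAAT boxes in 3.26%. A match gives the letters only, and binding of a factor was not measured. A link between the motifs and the direction of a gene was not tested.

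The DMSO-treated libraries held 11015480 to 11164840 counts and the THZ1-treated libraries 7876402 to 8314306, so every DMSO-treated library was deeper. The labels do not say that the libraries of a treatment came from separate cultures, so the p-values measure the spread between these libraries, which may be technical. All 12 genes of a B cell precursor marker list were at 10 CPM (counts scaled to 1e6 per library, with library sizes corrected by TMM, a scaling for composition) or more with DMSO, and their summed level was 4133 to 4269 CPM with DMSO and 2192 to 2257 CPM with THZ1. Of the T cell markers 0 of 6 reached the level needed for a test, with a summed level of 0.0820 to 0.338 CPM with DMSO and 0.921 to 1.52 CPM with THZ1 and CD8A at 0. The summed level of 6 myeloid markers, of which 4 were tested, was 3.88 to 4.59 CPM with DMSO against 17.3 to 18.4 CPM with THZ1. That of 3 erythroid markers was 0.164 to 0.253 against 2.94 to 3.81 CPM, and that of 5 stromal and epithelial markers 11.3 to 12.9 against 18.5 to 20.6 CPM. S100A9, a myeloid marker, and KRT18, an epithelial marker, were at 0 in all 6 libraries. The part of these markers in the results was not tested. In a bulk library, fewer cells of a kind and less RNA per cell cannot be told apart.

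Relative to the library, most of the detected inhibitor genes were higher with THZ1. Of the 6 members tested, 4 were higher (CDKN1A, CDKN1B, CDKN1C and CDKN2D), 1 was lower (CDKN3) and 1, CDKN2C, did not pass the test (edgeR's quasi-likelihood test on all genes, Benjamini-Hochberg adjusted p below 0.05). Of all genes tested, 43.5% were called higher and 41.1% lower by the same rule. At a log2 change of 1.5 or more, 3 members were higher, against 24.6% of all genes, and 0 were lower, against 12.9% (edgeR, 0 also with unadjusted p-values). CDKN1C and CDKN3 lay just under that fold. With DESeq2, 4 members were higher and 0 lower, CDKN1C being at 1.54, and 4 were also higher with RLE or upper quartile factors, with the stricter filter on counts and without DMSO replicate 3. CDKN3 passed the fold, making 1 lower, with library sizes alone (−1.73), with no filter (−1.57) and without DMSO replicate 1, DMSO replicate 2, THZ1 replicate 1 or THZ1 replicate 3 (farthest at −1.57, without DMSO replicate 1). The libraries of the treatments did not overlap for 5 of the 6 members, as for 84.7% of all genes. The median log2 fold change was 1.75 over the 6 members and 0.03 over all genes. Unless stated otherwise, log2 fold changes are THZ1 against DMSO.

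**Figure D1:**
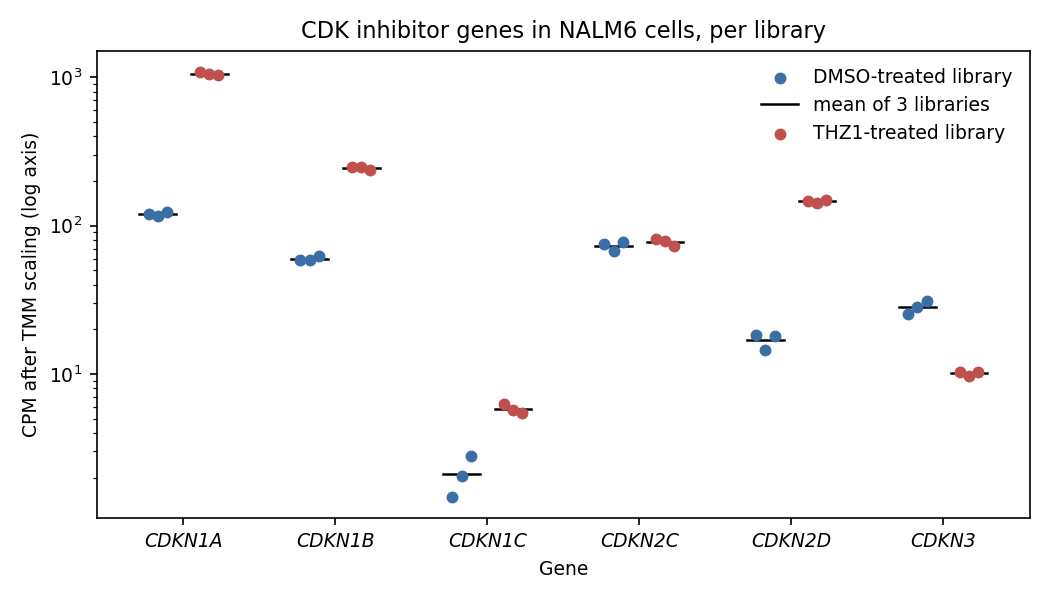
CPM after TMM scaling (log axis) of the 6 inhibitor genes with counts, for each of the 3 DMSO-treated (blue) and 3 THZ1-treated (red) libraries, with the mean of each treatment as a bar. CDKN1A rose from 120.2 to 1056 CPM and CDKN2D from 16.97 to 146 CPM, CDKN3 fell from 28.2 to 10.1 CPM, and the CDKN2C libraries of the treatments overlap.

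Among the Cip/Kip genes, CDKN1A, on chromosome 6 (36644237 to 36655114, GRCh37, plus strand), rose the most. It had 120.2, 117 and 123 CPM in the DMSO-treated libraries and 1086, 1048 and 1033 CPM in the THZ1-treated libraries. Every THZ1-treated library stood far above every DMSO-treated library. The mean level went from 120.2 ± 3.38 CPM to 1056 ± 27.6 CPM (SD, n = 3 each), 8.79-fold higher, with a log2 fold change of 3.13 (SE 0.074, edgeR adjusted p = 4.6e-28). Of all genes tested, 86.5% had a lower log2 fold change, and of the 10156 genes with a mean of at least 10 CPM over all libraries, a comparison chosen after the values were seen, 96.1% did. DINOL, a long noncoding RNA gene on the opposite strand inside CDKN1A, shares 146 exon bases with it and was not in the count table, and the strand setting of the counting is not given in the sources used here, so its reads could have been counted for CDKN1A.

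CDKN1B, the p27 gene on chromosome 12 (12838432 to 12875303, plus strand), rose less steeply. The DMSO-treated libraries had 58.2, 58.2 and 62.4 CPM, and the THZ1-treated libraries had 249, 248 and 237 CPM. The lowest THZ1-treated library was well above the highest DMSO-treated library. The mean went from 59.6 ± 2.40 to 245 ± 6.34 CPM (SD, n = 3 each), 4.11-fold higher, with a log2 fold change of 2.04 (SE 0.072, edgeR adjusted p = 3.8e-23). GPR19, a receptor gene that overlaps CDKN1B on the opposite strand with 0 shared exon bases, had between 13 and 19 counts in every library and did not pass the test (log2 fold change 0.30, edgeR adjusted p = 0.419).

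CDKN1C, the p57 gene on chromosome 11 (2904443 to 2907005, minus strand), was near the lower limit of detection. With DMSO it had 18, 25 and 33 counts, and with THZ1 48, 41 and 41 counts, in libraries that were shallower. In CPM this was 1.49, 2.05 and 2.79 with DMSO and 6.31, 5.68 and 5.48 with THZ1, so the treatments did not overlap. The mean went from 2.11 ± 0.650 to 5.82 ± 0.435 CPM (SD, n = 3 each), with a log2 fold change of 1.46 (SE 0.256, edgeR adjusted p = 3.6e-06). In the deposited log2 table, tested with limma on log2(FPKM + 1), the difference was 0.44 (adjusted p = 0.0421), so its size rests on the table used while its direction does not.

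Among the INK4 genes, CDKN2A (chromosome 9, 21967751 to 21995300, minus strand) and CDKN2B (22002902 to 22009304, minus strand) had 0 counts in all 6 libraries. Such a count allows a level of up to 0.253 CPM in a DMSO-treated library and up to 0.415 CPM in a THZ1-treated library (3 counts per library, counting error only). Neither gene was tested, and neither was in the per-length table. The zeros were not confined to the pair. The antisense gene CDKN2B-AS1 and ENSG00000264545, which overlap them, had 0 counts in every library, as did the neighbouring protein-coding genes MTAP, IFNE, IFNA1, DMRTA1, ELAVL2 and IZUMO3. Of these, MTAP encodes an enzyme of methionine salvage that most cells make.

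The stretch without appreciable counts was wide. The nearest genes that had 10 counts or more throughout were ACER2, 2515248 bases from CDKN2A on the left, and CAAP1, 4831379 bases from CDKN2B on the right. ACER2 had 11 to 15 counts with DMSO and 53 to 67 with THZ1, and CAAP1 had 419 to 446 counts with DMSO and 88 to 95 with THZ1. Between them lie 7.39 megabases with 93 genes of the count table, 28 of them protein-coding. Of the 93 genes, 89 had 0 counts in all 6 libraries, and of the 28 protein-coding genes only SLC24A2 had any, with 3 counts over all libraries. Of all 57905 genes of the count table, 30884 had a count, so genes at 0 were common elsewhere too. The edges were chosen by their counts, so low counts between them partly follow from that choice. The other genes with counts were ENSG00000260912, KHSRPP1 and LINC01239, with 72, 5 and 1 counts over all libraries. These edges were sought after the zeros were seen. The number of gene copies in these cells was not measured, so an absent locus and a silent locus cannot be told apart.

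CDKN2C, the p18 gene on chromosome 1 (51426417 to 51440306, plus strand), was the member that did not pass the test. The DMSO-treated libraries had 75.5, 67.5 and 77.2 CPM, and the THZ1-treated libraries had 80.7, 78.4 and 72.7 CPM. The libraries of the treatments overlapped. The means were 73.4 ± 5.21 and 77.3 ± 4.11 CPM (SD, n = 3 each), with a log2 fold change of 0.07 (95% interval −0.09 to 0.24, edgeR adjusted p = 0.398). Its sign and its call depended on the scaling. The log2 fold change was 0.27 with upper quartile factors (edgeR adjusted p = 0.00338), 0.21 when the fit was limited to genes whose 6 libraries all had 10 counts or more (edgeR adjusted p = 0.0219), −0.17 with library sizes alone (edgeR adjusted p = 0.0503) and −0.005 without DMSO replicate 2 (edgeR adjusted p = 0.953). Upper quartile factors moved the median log2 fold change of all genes by 0.19 and library sizes alone by −0.25. ENSG00000290102, on the opposite strand inside CDKN2C, shares 617 exon bases with it and was not in the count table.

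CDKN2D, the p19 gene on chromosome 19 (10677136 to 10679735, minus strand), rose nearly as much as CDKN1A from a lower starting level. The DMSO-treated libraries had 18.4, 14.5 and 18.1 CPM, and the THZ1-treated libraries had 146, 142 and 149 CPM. Every THZ1-treated library exceeded every DMSO-treated library. The mean went from 16.97 ± 2.14 to 146 ± 3.32 CPM (SD, n = 3 each), 8.57-fold higher, with a log2 fold change of 3.10 (SE 0.093, edgeR adjusted p = 3.6e-25). Of all genes tested, 86.3% had a lower log2 fold change, and of the genes with a mean of at least 10 CPM, 95.9% did.

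CDKN3, the phosphatase gene on chromosome 14 (54863567 to 54886936, plus strand), was the only member that fell. The DMSO-treated libraries had 25.5, 28.2 and 30.9 CPM, and the THZ1-treated libraries had 10.3, 9.69 and 10.3 CPM. Every THZ1-treated library was below every DMSO-treated library. The mean went from 28.2 ± 2.71 to 10.1 ± 0.339 CPM (SD, n = 3 each), 2.79-fold lower, with a log2 fold change of −1.48 (SE 0.131, edgeR adjusted p = 2.4e-12). Of all genes tested, 13.2% had a lower log2 fold change. CDKN3 was not in the per-length table.

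The direction of CDKN1A, CDKN1B, CDKN1C, CDKN2D and CDKN3 and their side of the adjusted p threshold of 0.05, at any fold, held under every alternative run for them. CDKN1C came near that threshold, with adjusted p = 0.0496 by limma on log2(FPKM + 0.1). Every alternative takes levels relative to the library. No measure of RNA per cell is given in the sources used here, so a change per cell was not tested. The log2 fold change ranged from 2.89 to 3.33 for CDKN1A and from 1.79 to 2.23 for CDKN1B. It ranged from 0.44 to 1.69 for CDKN1C, with the lowest values on the deposited log2 table, and from 2.85 to 3.29 for CDKN2D. For CDKN3 it ranged from −1.73 to −1.29, on the counts alone.

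**Figure D2:**
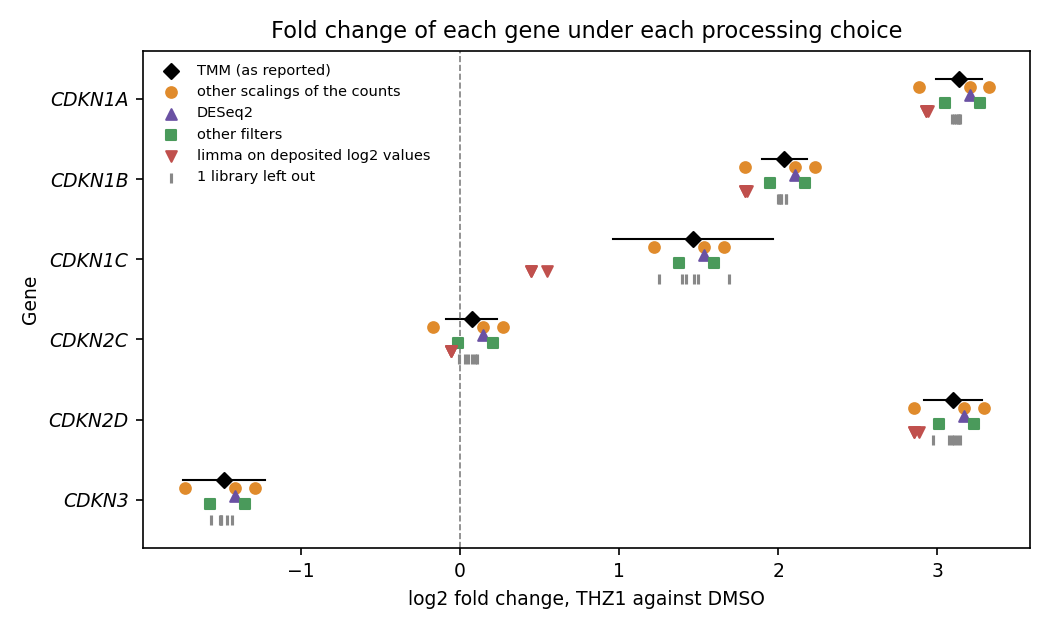
Log2 fold change of each inhibitor gene, THZ1 against DMSO, with TMM scaling (black diamonds, bars the 95% interval), other scalings, DESeq2, other filters, limma on the deposited log2 values and each library left out. CDKN1A, CDKN1B, CDKN1C and CDKN2D stay to the right of 0 and CDKN3 to the left, while CDKN2C lies from −0.17 to 0.27.

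Levels of different genes were compared per transcript length, in the authors' FPKM (fragments counted per length of transcript and per depth of the library), taken back from the log2 scale. With DMSO, the FPKM level of CDKN1A was highest at 112 ± 2.47, followed by CDKN2C at 68.5 ± 3.49, CDKN1B at 65.3 ± 1.19, CDKN2D at 31.4 ± 3.87 and CDKN1C at 3.28 ± 0.852 (SD, n = 3 each). The libraries of CDKN2C and CDKN1B overlapped, so their order was not set, whereas the other neighbours did not overlap. With THZ1, the FPKM level of CDKN1A was 859 ± 14.5, that of CDKN2D 232 ± 2.86, that of CDKN1B 229 ± 8.12, that of CDKN2C 65.8 ± 3.32 and that of CDKN1C 4.76 ± 0.465 (SD, n = 3 each). CDKN2D and CDKN1B overlapped, and the other neighbours did not. Among the 16730 genes of that table, CDKN1A moved from rank 1034 to rank 104 and CDKN2D from rank 4188 to rank 432, while CDKN2C stood at ranks 1884 and 1997.

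The make-up of the 5 measured transcripts shifted with these levels. Their summed FPKM was 280.3 ± 5.65 with DMSO and 1390 ± 22 with THZ1 (SD, n = 3 each). CDKN1A made up 39.9% ± 1.52 of the sum with DMSO and 61.8% ± 0.249 with THZ1. CDKN2C made up 24.4% ± 0.761 and then 4.73% ± 0.167, although its own level overlapped between treatments. CDKN2D went from 11.2% ± 1.17 to 16.7% ± 0.471 and CDKN1B from 23.3% ± 0.700 to 16.5% ± 0.376 (SD, n = 3 each). The linear values of the table sum to 804000 to 823000 in each library, as TPM values could, so the scale is not settled, while the order within a library does not depend on it. The shares rest on reading the table as log2(FPKM + 1), which low values do not bear out: TRPM5, with 0 counts in the DMSO-treated libraries, stands there at log2 values of 0.33, 0.32 and 0.35 rather than 0.

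**Figure D3:**
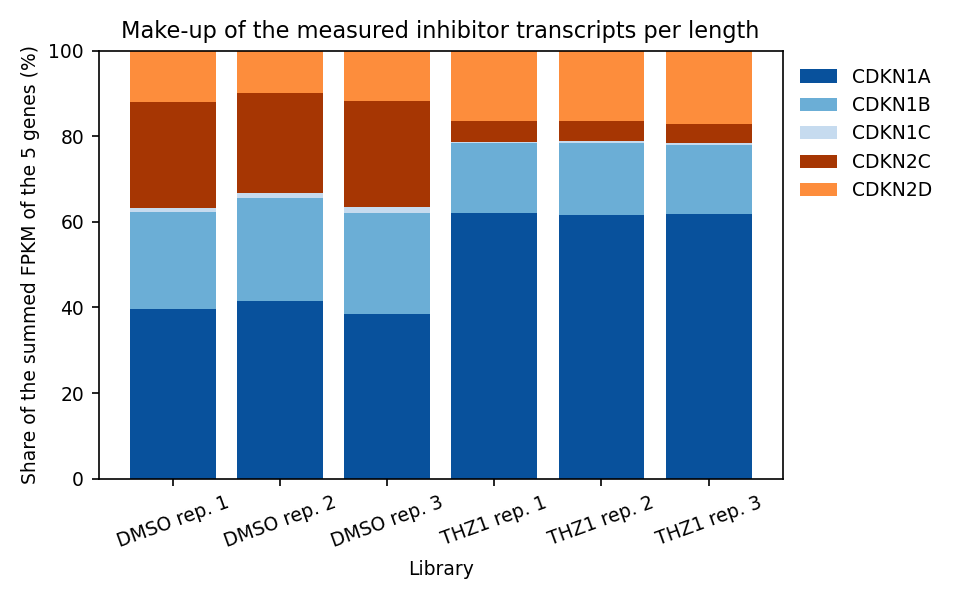
Share of the summed FPKM of the 5 inhibitor genes in the per-length table (percent, stacked bars), for each DMSO-treated and THZ1-treated library. The CDKN1A part is 39.9% on average with DMSO and 61.8% with THZ1, and the CDKN2C part shrinks from 24.4% to 4.73%.

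A second estimate per length, CPM per kilobase of the longest annotated transcript, also covered CDKN3. In the DMSO-treated libraries it gave CDKN1A 53.01 ± 1.49, CDKN3 26.3 ± 2.53, CDKN2C 25.3 ± 1.79, CDKN1B 13.8 ± 0.555 and CDKN2D 11.9 ± 1.502 CPM per kilobase (SD, n = 3 each). In the THZ1-treated libraries CDKN2D, at 102 ± 2.33, was above CDKN1B, at 56.5 ± 1.46, and CDKN3 had fallen to 9.42 ± 0.316 CPM per kilobase (SD, n = 3 each). CDKN1A came first with both estimates and both treatments, but CDKN2C and CDKN2D, which overlapped CDKN1B in FPKM with DMSO and with THZ1 in turn, stood above it in this estimate.

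The inhibitors act by binding kinases, so the counts of inhibitor and partner were compared as log2 ratios within each library. These ratios do not depend on the scaling. The counts are not corrected for transcript length, so the sign of a ratio does not say which transcript was more abundant. A fixed length cancels in the difference of a ratio between the treatments. The log2 ratio of CDKN1A to CDK2 was −0.45, −0.55 and −0.46 in the DMSO-treated libraries and 4.01, 3.76 and 3.86 in the THZ1-treated libraries. CDKN1A thus had fewer counts than CDK2 in every DMSO-treated library and more in every THZ1-treated library, a 20.6-fold change of the ratio. The log2 ratio of CDKN1B to CDK2 went from −1.496 ± 0.054 to 1.77 ± 0.106, also below 0 with DMSO and above 0 with THZ1 in every library (SD, n = 3 each). That of CDKN1A to CDKN1B went from 1.01 ± 0.031 to 2.11 ± 0.025, so CDKN1A gained on its relative (SD, n = 3 each).

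For the INK4 genes, the log2 ratio of CDKN2D to CDK4 went from −3.77 ± 0.130 to 0.90 ± 0.059, and that of CDKN2D to CDK6 from −5.06 ± 0.309 to −0.42 ± 0.068 (SD, n = 3 each). CDKN2C, whose own level overlapped between treatments, had higher log2 ratios with THZ1, while its partners CDK4 and CDK6 fell (log2 fold changes −1.56 and −1.53). Its log2 ratio to CDK4 went from −1.65 ± 0.082 to −0.01 ± 0.150 and its log2 ratio to CDK6 from −2.94 ± 0.227 to −1.34 ± 0.102 (SD, n = 3 each). Per length, the order against CDK6 with THZ1 was the other way. CDKN2D stood at 232 and CDKN2C at 65.8 FPKM, above CDK6 at 41.7 FPKM (means of the THZ1-treated libraries). The ratios of CDKN3 to its substrates differed least between the treatments. Its log2 ratio to CDK1 was −2.60, −2.41 and −2.37 with DMSO and −2.83, −2.71 and −2.66 with THZ1, and its log2 ratio to CDK2 was −2.69, −2.60 and −2.46 with DMSO and −2.71, −3.00 and −2.79 with THZ1. The difference of the means was −0.27 for CDK1 and −0.25 for CDK2. All 9 ratios computed separated the treatments without overlap. Single genes did so for 84.7% of all genes tested, and the share over ratios of other genes was not computed. Each ratio gave p = 0.1 by the two-sided exact permutation test (adjusted over the 9 ratios, 0.1), the smallest p that 3 libraries against 3 allow.

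**Figure D4:**
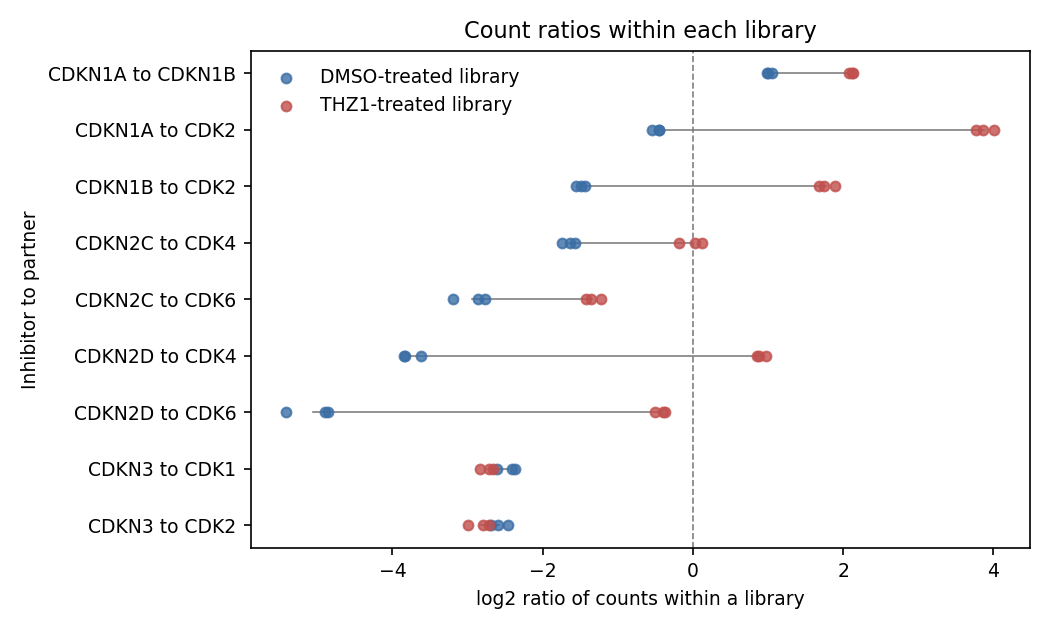
Log2 ratio of the counts of an inhibitor to those of its partner, and of CDKN1A to CDKN1B, within each library. The 3 DMSO-treated libraries are blue and the 3 THZ1-treated libraries red, with a line between the means. The ratios of CDKN1A and CDKN2D to their kinases differ by 4.36 to 4.67 between the treatments, and those of CDKN3 to CDK1 and CDK2 by −0.27 and −0.25.

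The partners themselves mostly fell. Of the 13 kinases and cyclins that the inhibitors bind, 11 were tested, 8 were lower, 2 higher and 1 not called, with a median log2 fold change of −1.23. CDK4 fell from 231 ± 24.7 to 78.1 ± 3.96 CPM and CDK6 from 564 ± 48.9 to 195 ± 6.16 CPM (SD, n = 3 each, log2 fold changes −1.56 and −1.53). CDK2 fell by 1.23 and CDK1 by 1.203 on the log2 scale, and CCND3, a D-type cyclin, by 2.12. CCND2, another D-type cyclin, was higher at a low level, with 1.52 ± 0.364 and 5.31 ± 1.75 CPM (SD, n = 3 each, log2 fold change 1.80). In the per-length table CCND2 was not higher, at 1.21 ± 0.138 FPKM with DMSO and 1.05 ± 0.535 FPKM with THZ1 (SD, n = 3 each), and limma on log2(FPKM + 1) gave −0.14 (adjusted p = 0.547). The mitotic cyclin CCNB2 was also higher in the counts (0.30). CCNE1 was not called (0.15). CCNB2 and CCNE1 were named as the exceptions after their values were seen, as are the uncalled genes and single exceptions of the lists that follow.

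Inhibitor proteins are also set by their breakdown, in which SKP2 helps to mark p27 and the DTL complex p21. Of 14 genes of inhibitor protein turnover, 8 were lower, 4 higher and 2, SKP1 and RCHY1, not called, with a median log2 fold change of −0.47. SKP2 fell from 105 ± 8.15 to 76.9 ± 4.04 CPM (SD, n = 3 each, log2 fold change −0.45, edgeR adjusted p = 4.2e-06). DTL fell the most (−1.57), and CDC20, an activator of the anaphase-promoting complex, rose from 239.6 ± 21.7 to 1059 ± 41.7 CPM (SD, n = 3 each, log2 fold change 2.14). Protein levels were not measured in these libraries.

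Of 22 transcriptional regulators of the inhibitor genes, 20 were tested, 7 were higher, 7 lower and 6 not called, with a median log2 fold change of 0.02. MYC, whose protein represses CDKN1A and CDKN2B, fell from 639 ± 27.0 to 86.1 ± 7.03 CPM (SD, n = 3 each, log2 fold change −2.89). KLF6, a zinc finger factor that can activate CDKN1A, rose from 27.8 ± 1.69 to 564 ± 28.3 CPM (SD, n = 3 each, log2 fold change 4.34). The list thus held called genes in both directions.

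Of the 8 genes in a list of kinases and phosphatases that act on CDKs, 6 were lower and 2, CDC25C (1.07) and WEE1 (0.32), higher. The median log2 fold change was −0.29. The list also held CCNH (−0.97) and MNAT1 (−0.93), which encode the partners of CDK7 in its complex and are not kinases or phosphatases. Both were among the lower genes. PKMYT1, an inhibitory kinase of CDK1, fell the most (−1.36). Of the 10 pocket proteins and E2F factors, through which CDK4 and CDK6 act on the cell cycle, 8 were lower, E2F2 was higher (0.64) and RBL2 not called (−0.13), with a median of −0.36. E2F1 fell from 180.1 ± 14.1 to 25.4 ± 2.96 CPM (SD, n = 3 each, log2 fold change −2.83). The counts of these lists are to be read against the 43.5% of all genes called higher and 41.1% called lower.

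**Figure D5:**
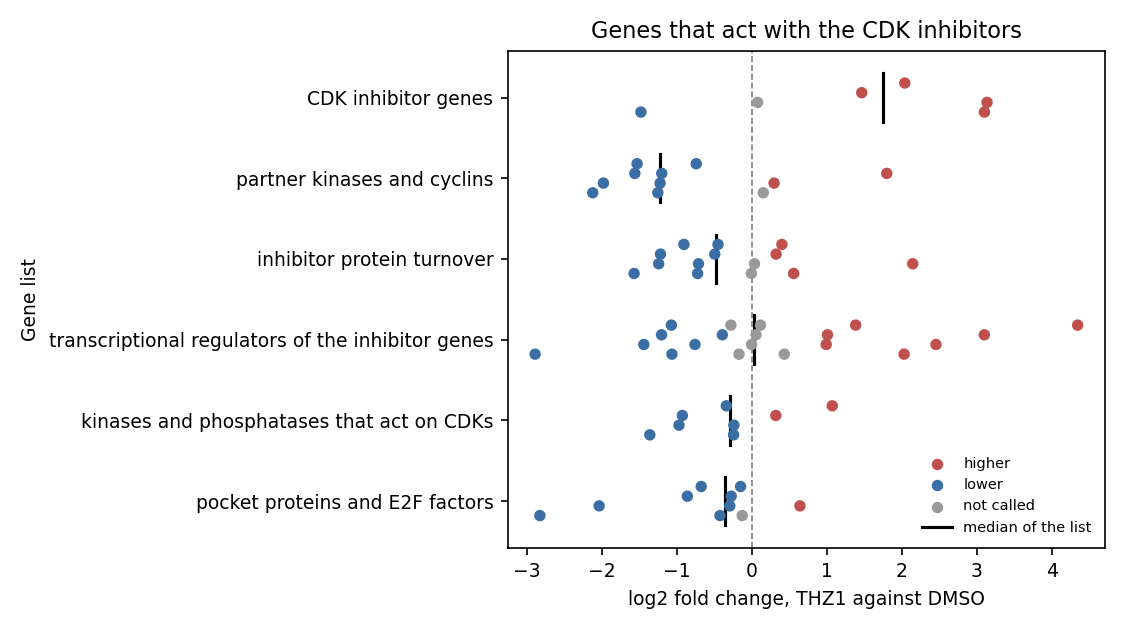
Log2 fold change, THZ1 against DMSO, of each tested gene of the inhibitor list and of 5 lists of genes that act with it, coloured by call (edgeR), with the median of each list as a bar. The medians are 1.75 for the inhibitors, −1.23 for the partner kinases and cyclins and 0.02 for the transcriptional regulators.

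The neighbours of the inhibitor genes on the chromosome differed in their directions. Of the 3 nearest protein-coding genes on each side of CDKN1A, 4 were tested and all 4 were lower, from −2.44 for KCTD20 to −0.89 for PPIL1. CDKN2C starts 478 bases from FAF1, which lies on the opposite strand and fell from 68.4 ± 1.25 to 14.2 ± 1.18 CPM (SD, n = 3 each, log2 fold change −2.26, edgeR adjusted p = 5.8e-20). CDKN2D ends 429 bases from KRI1 on the same strand, which was higher (0.84), and of its 5 tested neighbours 3 were higher and 2 lower. APOLD1, 3548 bases beyond CDKN1B, was higher too (2.60, edgeR adjusted p = 2.4e-18), and of the 5 tested neighbours of CDKN1B 3 were higher, 1 lower and 1 not called. The 4 tested neighbours of CDKN1C were 3 higher and 1 lower, from −0.21 for NAP1L4 to 11.6 for TRPM5. TRPM5 had 0 counts in every DMSO-treated library and a mean of 39.3 CPM with THZ1, so the size of its log2 fold change was not measured. The 3 higher neighbours of CDKN1C each had a larger estimated log2 fold change than CDKN1C itself (1.46). The 6 tested neighbours of CDKN3 ranged from −0.90 to 0.86, all above CDKN3 itself. The neighbours other than those of CDKN2A and CDKN2B were named after their values were seen.

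Some genes had nearly the same CPM profile over the 6 libraries as a member, by the Euclidean distance between log2 CPM values. The nearest to CDKN1A were ADRM1 (distance 0.501), H1-10-AS1 (0.845) and H1-10 (1.03). ADRM1 had treatment means of 106 ± 17.1 and 972 ± 55.6 CPM (SD, n = 3 each). The nearest to CDKN1B were TLNRD1 (0.274), FAM53C (0.281) and MYD88 (0.284), and TLNRD1 had 62.9 ± 6.75 and 251 ± 4.31 CPM (SD, n = 3 each). The nearest to CDKN2D were ENSG00000273151 (0.436), SLC10A3 (0.478) and ENSG00000268112 (0.552), and SLC10A3 had 16.8 ± 2.75 and 123 ± 2.91 CPM (SD, n = 3 each). A small distance says that level and difference were alike in these libraries, and no more.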

How the data were processed

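RNA-SEQ libraries of NALM6 cells, 3 treated with DMSO and 3 with THZ1, were grouped by the treatment in their labels. Raw counts for each gene were deposited, made per the methods and the submitters' processing notes with cutadapt, STAR (GRCh37) and HTSeq. The annotation and strand setting are not given in the sources used here. The authors also deposited log2 values of FPKM from RSEM, read as log2(FPKM + 1) and taken back to FPKM. The fold changes, p-values and FDR values in that table are the authors' own and were not used.

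Low genes were removed by filterByExpr of edgeR (minimum count 10, minimum total 15) and scaled by TMM. The two-sided quasi-likelihood test of edgeR was run on 16622 genes, and its p-values were adjusted by Benjamini-Hochberg. A gene was called at an adjusted p-value below 0.05. The members and lists were chosen with earlier results of these data known. The named genes were all 8 members, the called extremes of each list, CDK1, CDK2, CDK4, CDK6, MYC, SKP2 and CDKN2B-AS1, genes overlapping a member, the protein-coding neighbours of CDKN2A and CDKN2B, and the 3 genes nearest in profile to each member called at 1.5 or more. Some genes of the lists and of this rule, and 1 whole list, are not reported here. Gene positions are from GENCODE 44 on GRCh37. The depth of 7876402 to 11164840 counts per library limits genes of few counts, such as CDKN1C. Replicate libraries differed by more than sampling noise.

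As alternatives, counts were scaled by library size, RLE or upper quartile factors, or tested with DESeq2. The filter was dropped or raised to 10 counts in all libraries, a replicate block was added, and each library was left out. The FPKM values were tested with limma (pseudocount 1 or 0.1, mean FPKM from 0.1 or from 1). The pipeline was tested on simulated counts in which 200 genes were changed, and edgeR called 85.7% of those changed by 1 on the log2 scale. Far more genes were called in the real libraries, so the simulation does not test the scaling used here. Versions were edgeR 4.0.16, DESeq2 1.42.0 and limma 3.58.1 under R 4.3.3, and scipy 1.17.1, pandas 2.3.3, numpy 2.4.6 and matplotlib 3.10.9 under Python 3.11.15.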

Additional observations from a re-analysis of the deposited data

How the results depend on the processing

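The calls of CDKN1A, CDKN1B, CDKN1C, CDKN2D and CDKN3, at an adjusted p below 0.05 and any fold, held under every alternative run for them. All of these alternatives take levels relative to the library. For CDKN1C, limma on log2(FPKM + 0.1) gave adjusted p = 0.0496. CDKN2C reversed or gained a call: its log2 fold change was 0.21 with at least 10 counts in every library, 0.27 with upper quartile factors, −0.17 with library sizes alone, −0.057 in each of the 3 limma fits and −0.012 with no filter, against 0.07. With each library left out it ranged from −0.005 to 0.106. The cause was not tested. The THZ1 per-length ranks of CDKN1B and CDKN2D ranged from 2 to 3 when libraries were left out, since they changed places without THZ1 replicate 3.

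Over all genes, 1821 were higher and 1178 lower by 1.5 or more with at least 10 counts in every library, which tests fewer genes, and 7009 were higher with no filter, which tests more, against 4088 and 2142. The limma fits called 0 members lower, because CDKN3 is not in that table. With library sizes alone the lists had 1 partner higher, 2 turnover genes higher, 1 kinase or phosphatase higher and 11 transcriptional regulators lower, against 2, 4, 2 and 7. The 3 limma fits gave 0 partners higher, with CCND2 turned to −0.14 or −0.29, and 1 kinase or phosphatase higher. At least 10 counts in every library and upper quartile factors each gave 3 genes of the kinase and phosphatase list and 5 pocket or E2F genes lower. Why these counts moved was not tested.

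Replicate numbers did not pair the libraries: same-numbered libraries had correlations of deviations of −0.004, 0.000969 and 0.0206. With the replicate number as a block, 7186 genes were higher and 6794 lower, and the members' counts stayed at 4 higher and 1 lower, with CDKN1C at 1.48 and CDKN3 at −1.48. Depth limits CDKN1C, CDKN2A and CDKN2B, and 3 libraries a treatment limit every ratio test.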
